A study of Glycine max and Zea mays with 6 samples.

Results

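Close pairs of H3K4me3 peaks in soybean leaf are described here: consecutive peaks on the same chromosome with a gap of 1000 bp or less and no single H3K36me3 region overlapping both. The members were chosen by the deposited positions of H3K4me3 and H3K36me3. There were 3958 such pairs among 51122 pairs of consecutive H3K4me3 peaks on the 20 chromosomes. They took in 7500 of 51142 peaks, or 14.7%. The gaps and the lack of a shared H3K36me3 region are therefore not findings. H3K56ac and the place of the pairs against genes were not used to choose them.

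The data came from ChIP-seq, in which DNA held by a modified histone is pulled down with an antibody and sequenced. Soybean plants (Glycine max, William82) were grown without treatment at 25 °C in days of 16 h light and nights of 8 h, and leaves were taken at about 10 days. The marks were 3 changes to histone H3: lysine 4 trimethylated (H3K4me3), lysine 56 acetylated (H3K56ac) and lysine 36 trimethylated (H3K36me3). The series' design text names H3K4me1 for soybean where the sample's title and antibody label give H3K4me3. The sample's labels were followed. Each mark had 1 library, so no value has a replicate check and no test between samples was possible. Shares are given with exact 95% intervals. These reflect counting error only, and pairs that lie next to each other are not independent.

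H3K4me3 is found in plants where transcription begins, and H3K36me3 further along the bodies of active genes. H3K56ac is known from newly placed histones and from active promoters. A pair of H3K4me3 peaks a short distance apart can therefore lie at neighbouring genes whose ends face each other, or it can be a stretch of the mark within 1 gene that is broken by a gap.

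The depth of the libraries is unknown, because the lists hold positions alone. The shortest peak of both narrow marks was 147 bp, and no gap below 301 bp occurred in either list. The shortest gap between H3K36me3 regions was 800 bp. A gap of 300 bp or less between H3K4me3 peaks could therefore not be seen, and the pairs are those at the short end of what the lists can hold. Coordinates are those of the deposited lists, and the sources used here name no soybean build. Genes came from a RefSeq table of Glycine_max_v4.0 that carries no strand, so which end of a gene is its start is not known here.

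The gaps were short. Their median was 559.5 bp, with quartiles of 403 and 768 bp. Gaps of 301 to 350 bp were the most frequent 50 bp class, with 543 pairs, and the count fell to 204 pairs at 951 to 1000 bp. The shortest gap, 301 bp, was seen in 10 pairs, and the longest, 1000 bp, in 3. Another 3412 pairs had a gap of up to 1000 bp but were joined by 1 H3K36me3 region over both peaks. These joined pairs had shorter gaps, with a median of 427.5 bp. At the limit of the rule little changed: the 204 pairs with gaps of 951 to 1000 bp had a median summed peak length of 1573.5 bp, and the 187 unjoined pairs with gaps of 1001 to 1050 bp had 1478 bp.

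**Figure D1:**
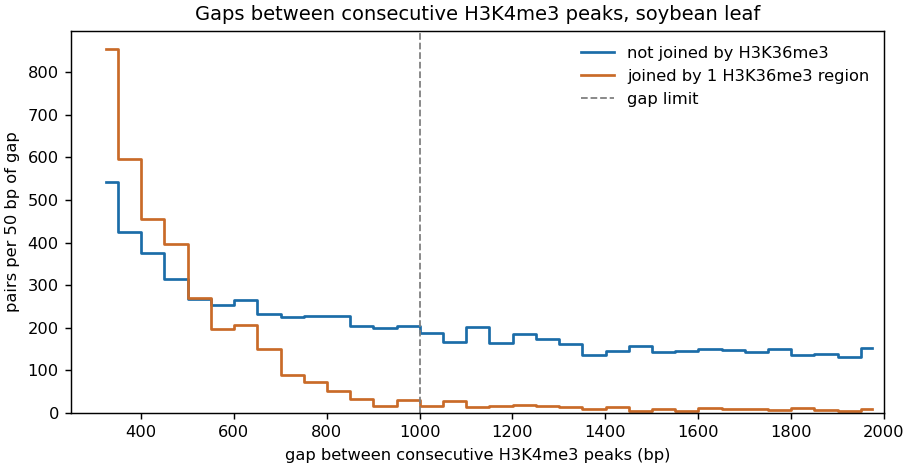
Number of consecutive H3K4me3 peak pairs per 50 bp of gap (y axis) against the gap in bp (x axis), for pairs not joined (blue) and joined (orange) by 1 H3K36me3 region; the dashed line is the gap limit of 1000 bp. Joined pairs outnumbered unjoined pairs at the shortest gaps, 854 against 543 at 301 to 350 bp, and were rare near the limit, 30 against 204.

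The peaks of the pairs were short and unequal. The shorter peak of a pair had a median length of 273 bp (quartiles 190 and 451 bp) and the longer 699 bp (421 and 1102 bp). The longer was a median 1.97 times the shorter. Over all member peaks the median was 443 bp, against 993 bp for the 37202 peaks that belonged to no close pair, joined or unjoined. Peaks of joined pairs had a median of 505 bp. A whole pair, gap included, spanned a median 1606 bp.

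Most pairs stood alone. They formed 3542 runs, of which 3171 held 2 peaks, 331 held 3, 36 held 4, 3 held 5 and 1 held 6. Of the 371 runs of 3 or more peaks, 220 (59.3%, interval 54.1 to 64.3) lay wholly inside 1 protein-coding gene. The longest runs were named after their values were seen. The run of 6 peaks was in LOC100783918 on chromosome 14, from 5181079 to 5187498. Its 6 peaks were 817, 167, 452, 148, 1845 and 147 bp long. H3K56ac overlapped every peak of this run and filled the first and the last gap, of 919 and 317 bp, while no H3K36me3 region touched it. The run of 5 peaks in LOC100800065 on chromosome 3 also had H3K56ac at every peak, but no base of its gaps was acetylated. The other runs of 5 peaks had little H3K56ac: it was at no peak of the run over LOC102662919 and LOC100801935 on chromosome 14, and at a single peak of the run in LOC100818394 on chromosome 19.

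The first question was which genes lie at the pairs. Most pairs of the full lists were within a single gene, but not most of those between long peaks. Both peaks overlapped the same protein-coding gene, with the gap midpoint inside it, in 2695 of 3958 pairs (68.1%, interval 66.6 to 69.5). Counting every gap midpoint inside a gene gave 70.6% (interval 69.1 to 72.0), where the background over all 7370 consecutive pairs with a gap of up to 1000 bp was 78.7%. Among joined pairs this share was 88.2% (interval 87.1 to 89.3), so unjoined pairs lay outside genes more often in this library. The joined pairs had shorter gaps, and unjoined pairs with gaps of up to 500 bp had 80.9%. With the longer 50% of each list, 285 pairs were left, and the gap midpoint was inside a gene in 28.8% of them.

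Pairs between neighbouring genes were few. The left peak lay within 1 kb of the facing end of the gene on the left, and the right peak within 1 kb of the facing end of the next gene, in 278 pairs (7.02%, interval 6.25 to 7.86). The background was 6.27%, so the share was close to that of all pairs with such gaps. It was 37.9% with the longer 50% of each list and 1.27% with a gap limit of 500 bp. For joined pairs it was 184 of 3412. In 473 pairs the gap was intergenic and a single peak was near a facing gene end, and in 414 neither was. The remaining 98 pairs had the gap midpoint in a gene without both peaks overlapping it.

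The place of a pair went with its gap. Of pairs with gaps of 301 to 400 bp, 81.2% (interval 78.6 to 83.6) were inside 1 gene and 1.03% (interval 0.496 to 1.89) lay between neighbouring genes. At 901 to 1000 bp these shares were 46.7% (41.7 to 51.7) and 21.3% (17.4 to 25.7). Unjoined pairs with gaps of 1001 to 2000 bp had 31.3% between neighbouring genes and 27.9% inside 1 gene. Just inside the limit, at 951 to 1000 bp, the gap midpoint was inside a gene in 42.6% of pairs and 24.5% lay between neighbouring genes. Just outside, at 1001 to 1050 bp, these values were 46.0% and 20.3%. For the 278 pairs between neighbouring genes the space between the annotated genes had a median of 1008.5 bp, and the gap a median of 806.5 bp.

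**Figure D2:**
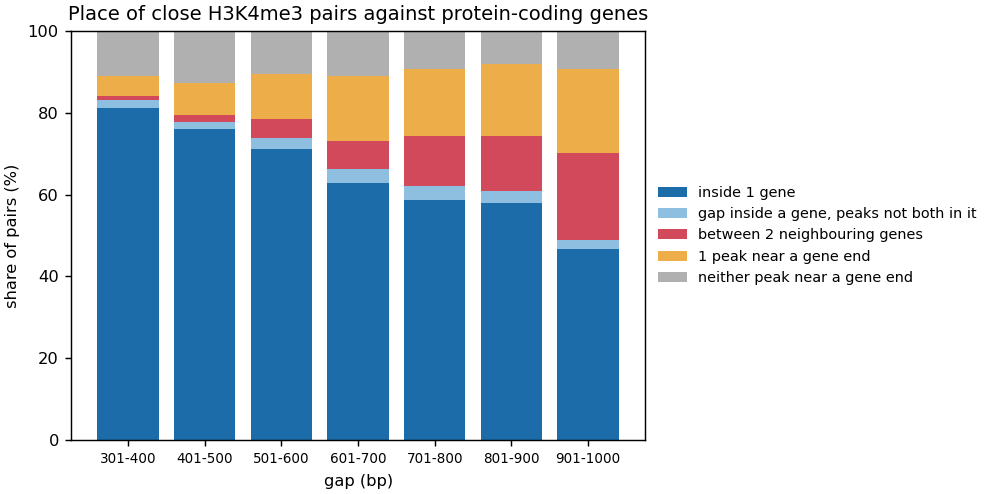
Share of close unjoined H3K4me3 pairs (y axis, %) in each place against protein-coding genes, by gap in bp (x axis); each bar adds to all pairs of that gap class. The part inside 1 gene falls from 81.2% at 301 to 400 bp to 46.7% at 901 to 1000 bp, and the part between neighbouring genes rises from 1.03% to 21.3%.

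Peak length went with place as well. Where the shorter peak was at most 300 bp, 2192 pairs in all, 76.7% (interval 74.9 to 78.5) were inside 1 gene and 2.65% (2.02 to 3.41) between neighbouring genes. Where it was over 900 bp, 226 pairs in all, 22.1% (16.9 to 28.1) were inside 1 gene and 42.5% (35.9 to 49.2) between neighbouring genes. Joined pairs showed the same order, with 44.4% of 207 such long pairs between neighbouring genes.

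**Figure D3:**
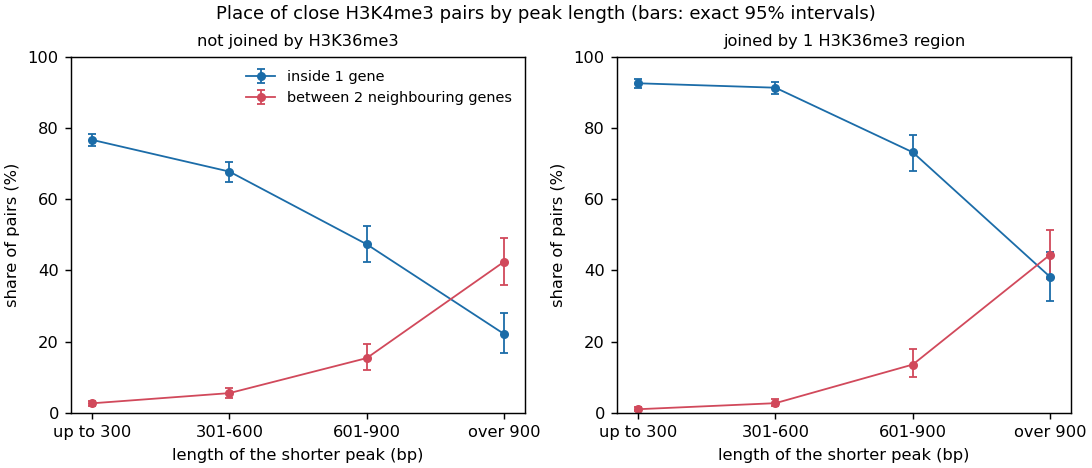
Share of close pairs (y axis, %) inside 1 protein-coding gene (blue) and between neighbouring genes (red), by length of the shorter peak in bp (x axis), for unjoined (left) and joined (right) pairs; bars are exact 95% intervals. For unjoined pairs the share inside 1 gene falls from 76.7% to 22.1% and the share between genes rises from 2.65% to 42.5%.

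Inside genes the pairs reached a gene end less often than joined pairs did. The 2695 pairs were in 2426 genes, which is 5.18% of all protein-coding genes, and 8.26% of those with a symbol held one. Of the 2426, 242 held more than 1, up to 5. These genes had a median length of 3044.5 bp, near the 3351 bp of all protein-coding genes. The gap midpoint was a median 819 bp from the nearer gene end (quartiles 558 and 1196 bp). The peak on the side of that end reached it or passed it in 37.0% of pairs (interval 35.2 to 38.8), compared with 63.6% (61.9 to 65.4) in joined pairs. A pair that spanned its whole gene from end to end was seen 158 times, 142 of these in genes of up to 2000 bp.

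The outer peak, on the side of the nearer gene end, was the longer in 43.9% of pairs inside genes (interval 42.0 to 45.8). This share went with gene length. It was 33.8% (interval 30.0 to 37.8) in genes of up to 2000 bp and 54.8% (50.8 to 58.7) in genes of over 5000 bp. H3K56ac was at 64.8% of outer and 64.9% of inner peaks, and this too went with gene length. Of 588 pairs in genes of up to 2000 bp, 353 had it at the outer and 416 at the inner peak. Of 637 pairs in genes of over 5000 bp, 450 had it at the outer and 415 at the inner peak. In joined pairs of all gene lengths the outer peak was acetylated more often than the inner, 87.9% against 74.4%. Their order was reversed in genes of up to 2000 bp, with 79.9% against 88.3%. Counted per pair, joined pairs lay in longer genes, with a median of 4212 bp against 3112 bp.

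Between neighbouring genes, most pairs had at least 1 facing gene end within a peak, but fewer had both. Both ends were inside their peak in 117 of 278 pairs (42.1%, interval 36.2 to 48.1), and 1 end in another 132. The far ends of the genes mostly lacked the mark. Of the 169 pairs with both genes at least 2000 bp long, neither far end had H3K4me3 within 500 bp in 102 (60.4%, interval 52.6 to 67.8), 1 far end had it in 56, and both in 11. In joined pairs neither far end had it in 93 of 123. The peaks here were long, with medians of 694 bp for the shorter and 1262.5 bp for the longer.

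H3K36me3 was scarce at the pairs, which the rule in part sets. At 2777 pairs (70.2%) it overlapped neither peak, at 902 (22.8%) a single peak, and at 279 (7.05%) each peak had its own region. Of all pairs with a gap of up to 1000 bp, 37.7% had it at neither peak, but this is no separate background. Joined pairs have H3K36me3 at each peak by the rule, so these are the same 2777 pairs, counted over 7370. The contrast with 70.2% is therefore set by the rule and is not a finding. Separate regions of this list lie at least 800 bp apart, and the pairs with a region at each peak had long gaps, with a median of 841 bp. Between neighbouring genes 101 of 278 pairs had a region at each peak (36.3%, interval 30.7 to 42.3), and in 88 of these the regions ran outward from the pair on both sides. Inside genes 126 of 2695 pairs had a region at each peak. Where a single peak had H3K36me3, it was the longer in 754 of 902 pairs (83.6%).

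The second question was whether H3K56ac fills the gap. In most pairs it did not. H3K56ac covered at least 1 bp of the gap in 1943 of 3958 pairs (49.1%, interval 47.5 to 50.7), against a background of 45.0% over all pairs with gaps of up to 1000 bp and 40.3% (38.6 to 41.9) in joined pairs. The joined pairs had shorter gaps, and unjoined pairs with gaps of up to 500 bp had 42.7%. Much of the H3K56ac in the gaps was a short overhang from a peak. The median gap had 0% of its length covered, and 458 pairs (11.6%, interval 10.6 to 12.6) had at least 50% covered. Over the 20 chromosomes the share of pairs with H3K56ac in the gap ranged from 42.0% to 58.6%.

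A single H3K56ac peak ran over the whole gap and overlapped both H3K4me3 peaks in 394 pairs (9.95%, interval 9.04 to 10.9), where the background was 8.47%. Such peaks were more frequent at short gaps, with 16.1% (interval 13.9 to 18.6) at 301 to 400 bp and 4.22% (2.48 to 6.67) at 901 to 1000 bp. The joined pairs had 9.52% (8.06 to 11.1) at 301 to 400 bp and 2.25% (0.975 to 4.38) at 601 to 700 bp, where unjoined pairs had 8.45% (6.16 to 11.3). In 1544 pairs H3K56ac entered the gap from an edge without crossing it. It stood as a separate peak inside the gap in 5 pairs, 1 of them in ALDH2B1, an aldehyde dehydrogenase gene, named after its values were seen. Short gaps leave little room for this, since H3K56ac peaks are at least 147 bp long and lie at least 301 bp apart. With gaps of 1001 to 2000 bp a separate peak was seen in 117 of 3106 unjoined pairs.

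**Figure D4:**
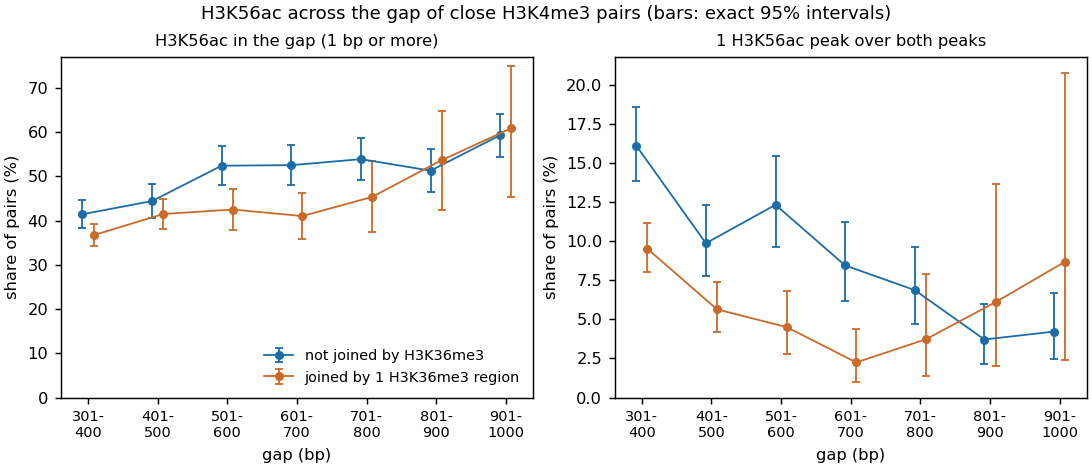
Share of pairs (y axes, %) with at least 1 bp of H3K56ac in the gap (left) and with 1 H3K56ac peak over both H3K4me3 peaks (right), by gap in bp (x axes), for pairs not joined (blue) and joined (orange) by H3K36me3; bars are exact 95% intervals. The share with a joining H3K56ac peak in unjoined pairs falls from 16.1% at 301 to 400 bp to 4.22% at 901 to 1000 bp.

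Over all pairs the gap had about as little H3K56ac as the ground outside, though this varied with place. Over all members 14.4% of gap bases lay under H3K56ac, compared with 13.2% in windows of the same length just outside the 2 peaks and 66.6% in the H3K4me3 peaks. In joined pairs these values were 8.90%, 9.74% and 76.4%. Between neighbouring genes 13.7% of gap bases and 11.6% of outside bases were covered, and inside genes 10.6% and 11.7%. With a single peak near a facing gene end the gap had 22.5% and the outside 16.5%. The 414 pairs with neither peak near one had 27.0% in the gap and 19.4% outside, and a joining H3K56ac peak in 20.8% of pairs (interval 17.0 to 25.0). Among these 414 pairs, 254 (61.4%) overlapped a gene of another type: 160 a pseudogene, 70 a long non-coding RNA gene and 21 a transcribed pseudogene. Where a single peak was near a facing gene end, 130 of 473 pairs (27.5%) overlapped a gene of another type. The share over all pairs was not counted.

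The peaks themselves were acetylated less often than those of joined pairs. H3K56ac overlapped both peaks in 57.1% of pairs (interval 55.5 to 58.6), a single peak in 24.2% and neither in 18.7%, where the background for both peaks over all pairs with such gaps was 62.6%. In joined pairs both were acetylated in 69.0% (67.4 to 70.6) and neither in 4.40%. The longer peak was acetylated in 75.6% of pairs and the shorter in 62.8%, and a longer peak is a larger target. Acetylation at neither peak was found in 25.4% of the pairs without H3K36me3 and in 1.08% of those with a region at each peak. The pairs without H3K36me3 had shorter peaks, with medians of 250 and 581 bp, against 628 and 1162 bp. Between neighbouring genes both peaks were acetylated in 74.1% (68.5 to 79.1), against 52.2% (50.3 to 54.1) inside genes. The peaks between genes were also longer, with medians of 694 and 1262.5 bp against 249 and 604 bp. The part of peak length in these differences was not tested.

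**Figure D5:**
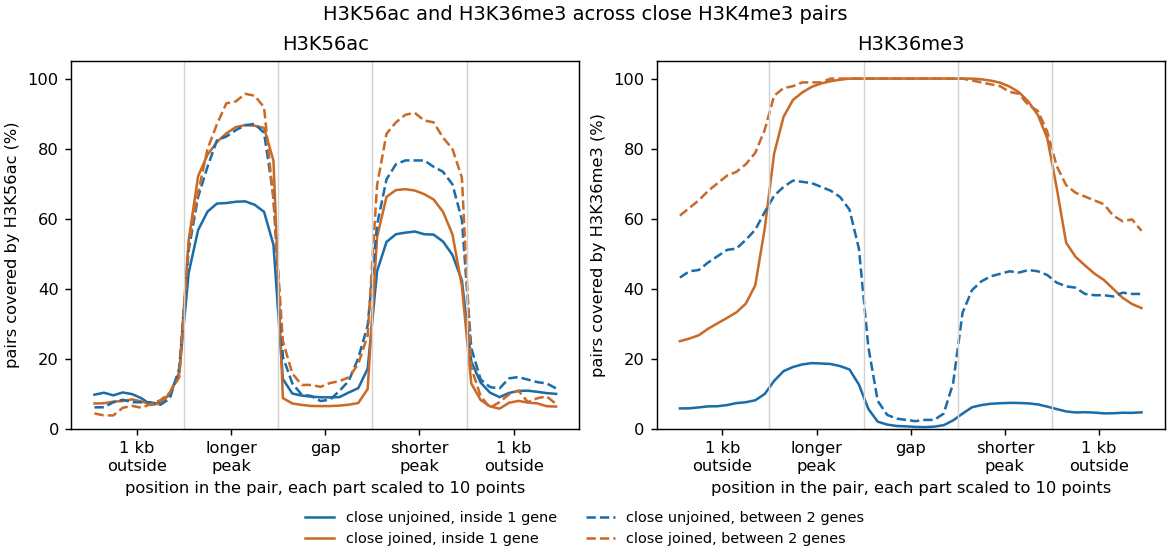
Share of close pairs covered (y axes, %) by H3K56ac (left) and H3K36me3 (right) along the pair, with each peak and the gap scaled to equal length and 1000 bp either side (x axes); pairs are turned so that the longer peak comes first, blue is unjoined, orange joined, solid inside 1 gene and dashed between neighbouring genes. H3K56ac falls from 64.9% at its highest point in the longer peak of unjoined pairs inside genes to 8.94% at its lowest point in the gap; the H3K36me3 cover of joined pairs across the gap is set by the rule.

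Where both peaks were acetylated and no H3K56ac peak joined them, the edges of both marks lay closer together at the gap than at the outer sides. In these 1866 pairs, with 3732 edges facing the gap, the H3K56ac edge was a median 21 bp from the H3K4me3 edge, and 82.4% of edges were within 100 bp. At the outer edges of the same pairs the median distance was 56 bp and the share 63.1%. Within 10 bp lay 31.7% of facing edges and 17.8% of outer edges. The H3K56ac gap had a median of 591.5 bp where the H3K4me3 gap had 620 bp.

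Inside genes this was seen also at the finest distance. There 39.7% of facing edges and 18.6% of outer edges lay within 10 bp, in 1195 pairs. Between neighbouring genes the values were 12.6% and 16.3%, in 187 pairs, and within 100 bp lay 73.5% and 57.5%. For unjoined pairs with gaps of 1001 to 2000 bp they were 15.1% and 16.6%. Because H3K56ac peaks also lie at least 301 bp apart, a short gap limits how far they can reach into it. In the pairs inside genes with gaps of 801 to 1000 bp, where that limit is loosest, 31.6% of 450 facing edges and 22.0% of outer edges lay within 10 bp. Joined pairs of all places and all gaps up to 1000 bp had 47.5% and 19.9%. Their median gap was 423 bp, so the limit was tighter there and the 2 sets are not alike. The part of mappability or sequence content in these shared edges was not tested.

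Of the 278 pairs between neighbouring genes, 2 lay between genes that both had a symbol of their own. Such symbols are rare, with 2348 among the 46816 protein-coding genes, so this count says little about the pairs. At CRK86 and CRK87 on chromosome 20, of the CRK symbol series, the peaks were 1394 bp (37891795 to 37893188) and 273 bp (37894160 to 37894432) with a gap of 971 bp. H3K56ac covered 1296 bp of the first peak and none of the second or of the gap. At PTS-L2 and PTS-L3 on chromosome 19 the peaks were 567 and 147 bp with a gap of 886 bp, and H3K56ac covered 536 bp of the first alone. In both pairs the longer peak was acetylated and the shorter was without H3K56ac.

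The pairs with the longest summed peaks lay between genes or at a gene end. The longest, on chromosome 5 from 682145 to 690283, had peaks of 1694 and 5487 bp across a gap of 958 bp, with H3K56ac over all 1694 bp of the first and 1946 bp of the second. The next, on chromosome 11 from 1313434 to 1319308, had peaks of 3907 and 1464 bp and a gap of 504 bp, of which H3K56ac covered 9 bp. Each had a single peak near a facing gene end. Next came 3 pairs between neighbouring genes. Of these, the pair of LOC100817801 and LOC100818336 on chromosome 17 (2871827 to 2877341) had its whole gap of 592 bp acetylated and an H3K36me3 region at each peak, of 12200 and 5600 bp. The pair of LOC113000226 and LOC100527784 on chromosome 18 had peaks of 2042 and 2748 bp and no acetylated base in its gap of 880 bp. The pair of LOC100306198 and LOC100796014 on chromosome 11 had 228 bp of H3K56ac in a gap of 933 bp.

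At the shortest gaps some named pairs were acetylated throughout and others were bare, and at the longest gaps the 5 named pairs were bare. H3K56ac was nevertheless in the gap, from 1 bp, in 57.8% of the 204 pairs with gaps of 951 to 1000 bp. Of the 5 named pairs with a gap of 301 bp, those in LOC100777617 and LOC100793645 had the whole gap acetylated. Those in LOC100800301 and LOC100787616 had H3K56ac at both peaks and none in the gap, and the pair at LOC100305399 had no H3K56ac although its longer peak was 2009 bp. The 5 named pairs with gaps of 999 or 1000 bp had no acetylated base in the gap. They included the pair of LOC100787343 and PAL3.1, a phenylalanine ammonia-lyase gene of phenylpropanoid synthesis, with peaks of 1263 and 208 bp and separate H3K36me3 regions of 5000 and 2000 bp.

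Clock and light genes held a pair in some symbol groups and not in others, and the groups are small. Over all protein-coding genes with a symbol, 8.26% held a pair. Both peaks lay inside 2 of 3 LCL, 1 of 5 PHY, 1 of 1 CAB and 1 of 1 LHC genes, and inside 0 of 2 CRY, 0 of 2 PRR, 0 of 1 TOC1, 0 of 5 ELF, 0 of 2 RBCS, 0 of 5 RCA and 0 of 1 PSA genes. LCL1 on chromosome 16 and LCL4 on chromosome 7, both of the LHY and CCA1 type of morning clock factor, had much the same layout. LCL1 had peaks of 594 and 348 bp across a gap of 906 bp, and LCL4 peaks of 490 and 351 bp across 897 bp. In each, H3K56ac was at the second peak alone, over 238 and 185 bp, the gap was without it, and 2 separate H3K36me3 regions flanked the gap, a long one of 9000 and 7000 bp and a short one of 400 and 800 bp. PHYB, the red light receptor phytochrome B, had 2 short peaks of 182 and 167 bp across 965 bp. H3K56ac covered 166 bp of the second peak and 2 bp of the gap.

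The chlorophyll-binding protein genes CAB3 and LHCB1-7 each had a short peak beside a long one. CAB3 had 165 and 1520 bp across a gap of 616 bp, with H3K56ac over 1230 bp of the long peak alone. LHCB1-7 had 206 and 1116 bp across 693 bp, with H3K56ac at both and over 4 bp of the gap. Of 13 FT genes, which act in flowering, 0 had a gap of a close pair within 1 kb of a gene end. Such gaps were found at 213 of 2348 protein-coding genes with a symbol (9.07%) and at 6.56% of all 46816 protein-coding genes.

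Most families of transcription factor genes were near or below this background. Such a gap lay within 1 kb of an end in 6 of 61 WRKY, 4 of 73 MYB, 1 of 41 NAC, 4 of 77 BZIP, 2 of 33 NF-Y and 7 of 37 HSF genes. The count for heat shock factors, which switch on heat shock genes, was 18.9% of the group. Among the CYP symbols, which take in cyclophilins and cytochrome P450 genes, it was 6 of 85. For 17 HDA histone deacetylase and 10 SGF14 (14-3-3) genes it was 0.

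In several of these genes H3K56ac reached over the gap. In WRKY42 on chromosome 15 the gap of 313 bp was fully acetylated, between peaks of 1195 and 183 bp. WRKY55 on chromosome 7 had 323 of 818 bp acetylated in one gap and all of its other gap of 303 bp, a pair named after its values were seen. In WRKY46 on chromosome 8, with peaks of 1204 and 652 bp across 847 bp, the gap and the second peak were without H3K56ac. NAC162 had 253 of 721 bp covered, BZIP22 253 of 932 bp and BZIP8 63 of 379 bp.

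MYB genes had gaps with little or no H3K56ac, and CYP genes varied. MYB118 had peaks of 1550 and 480 bp across a bare gap of 724 bp, with separate H3K36me3 regions of 1600 and 1200 bp. MYB176 had 2 bp covered of 658 bp, and MYB76, facing LOC102665411, none of 826 bp. CYP98A2, of the P450 family that acts in lignin synthesis in Arabidopsis, had 219 of 651 bp acetylated. CYP90A15, of the family of the brassinosteroid synthesis gene CPD of Arabidopsis, had 45 of 666 bp. CYP78A10 had no H3K56ac at either peak or in the gap.

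Heat shock factor genes had pairs inside and beside the gene, and the NF-YA pairs named here lay between genes. HSF-07 on chromosome 3 carried a run of 3 peaks of 520, 1035 and 1383 bp. Its first gap, of 778 bp, lay inside the gene, and its second, of 916 bp, lay between HSF-07 and LOC100788958. H3K56ac was at all 3 peaks and in neither gap. HSF-26 had peaks of 1032 and 288 bp across a bare gap of 701 bp. Other heat shock factor genes, named after their values were seen, varied. HSF-23 had all of a gap of 390 bp acetylated and 26 of 352 bp in its other gap. HSF-25 had 15 of 626 bp covered, and the gaps in HSF-03 and HSF-37 were bare. NF-YA15, of the NF-Y family of CCAAT-binding factors, faced LOC100777146 across a gap of 982 bp with 388 bp acetylated, and NF-YA19 faced LOC100780215 across a bare gap of 896 bp.

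Pairs were spread over all chromosomes. They made up 6.51% to 9.13% of the consecutive H3K4me3 pairs of a chromosome, with 137 to 276 pairs each. With each chromosome cut into 5 equal stretches, they were 8.51% and 7.98% of consecutive pairs in the outermost stretches and 5.80% in the middle one, where 186 pairs lay. The gap was inside a gene in 65.1% of pairs in the middle stretch and in 72.5% and 70.8% in the outermost ones.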

How the data were processed

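The authors deposited 1 peak list per sample, with chromosome, start and end and no score. Bowtie2, MACS2, Picard, SICER and Trimmomatic are listed, without roles, in the submitters' processing notes. No source used here states thresholds, the soybean build or the use of inputs. The members and gene lists were chosen with earlier results of these data known. The H3K36me3 list is gridded at 200 bp, and its ends were moved by 1 bp. Gaps, overlaps (from 1 bp) and exact (Clopper-Pearson) 95% intervals were computed with Python 3.11.15, pandas 2.3.3 and scipy 1.17.1, and the steps were tested on simulated pairs. Lists and gene table were checked against each other: 34.0% to 41.4% of H3K4me3 midpoints per chromosome were at most 500 bp from an end of a protein-coding gene, and at most 18.6% after shifts of 20 or 100 kb. Named pairs are those between 2 genes with symbols, the 5 with the longest peaks, the 5 with the shortest gaps and the 5 with the longest, and up to 3 per listed symbol prefix. Gene orientation needs strand, which the table lacks, so head-to-head pairs were not counted. The inputs and the maize sample were not used here, and no sequences were read.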

Additional observations from a re-analysis of the deposited data

How the results depend on the processing

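Of 37 recomputed values, 13 stayed within the interval or range of the value reported, 24 moved and 0 changed sign, which shares and counts cannot do. With a gap limit of 500 bp there were 1657 pairs, 42.7% with H3K56ac in the gap, 13.5% with a joining H3K56ac peak, 1.27% between neighbouring genes, 80.9% inside a gene and 0.604% with an H3K36me3 region at each peak. With 2000 bp there were 7064 pairs and these shares were 54.6%, 6.34%, 17.7%, 54.3% and 14.2%; the median gap was 0.698% covered. With the longer 50% of each list 285 pairs were left, and the shares were 52.6%, 11.6%, 37.9%, 28.8% and 8.42%, with a median of 1.01% covered. Of the settings tried, leaving out the shorter peaks moved the place of the pairs most: pairs inside a gene were then a minority, and fewer than those between genes. These settings change which pairs are counted, and the cause was not tested further. H3K56ac in the gap was 24.6% when counted from 50 bp and 11.6% when at least 50% of the gap had to be covered. With all gene types 9.50% lay between neighbouring genes and 76.9% inside a gene. Extending H3K36me3 regions by 200 bp, gene windows of 500 bp and leaving out runs moved none of the values computed with them. Orientation of gene pairs was not run. No paired analysis was possible because each mark has 1 library. The missing depth limits every statement on an absent mark: a bare gap is a gap without a call.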

Other observations

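Other gene families with several members holding a pair were picked after their values were seen, so the counts are descriptions; both peaks of a pair lay inside 8.26% of the 2348 protein-coding genes with a symbol. The counts were 6 of 18 HSP, 6 of 24 PIP, 6 of 21 gibberellin oxidase, 6 of 28 PIN and LAX, 5 of 37 GST, 7 of 65 IQD, 7 of 85 CRK and 2 of 2 LEC1 genes, so the IQD and CRK groups were near that share. HSP genes encode heat shock proteins. HSP90A1, a gene of the HSP90 chaperone family on chromosome 9, carried a run of 4 peaks of 216, 171, 2573 and 838 bp. The last of them faced it from LOC100797725. H3K56ac covered 442 bp of the peak of 2573 bp, all 838 bp of the last peak and 136 of the 963 bp between them. The small heat shock protein genes HSP17.5-M and HSP17.9-D each had a pair without any H3K56ac, while HSP17.3-B had 276 bp of it on its first peak. Of the PIP aquaporin genes, PIP2-11 had peaks of 1370 and 252 bp, and PIP1-10 of 1202 and 270 bp, acetylated at both peaks with bare gaps of 615 and 561 bp.

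The genes below were picked in the same way. Of the gibberellin oxidase genes, GA3OX6 had 524 of 881 bp of its gap acetylated, and GA20OX3 had none of 681 bp between acetylated peaks of 591 and 702 bp. Both LEC1 genes, whose Arabidopsis relative directs embryo development, held pairs without H3K56ac: LEC1-A had 3 peaks of 175, 347 and 339 bp and LEC1-B 2 peaks of 277 and 300 bp. PIN1A, an auxin efflux carrier gene, had 3 peaks of 733, 269 and 762 bp and no H3K56ac. Between neighbouring genes, the magnesium chelatase gene CHLI faced LOC100817021 across a gap of 950 bp that was acetylated throughout.

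For close pairs of H3K56ac peaks the order of the 2 cases differed with and without a shared H3K36me3 region. Of 8160 close pairs of H3K56ac peaks with no H3K36me3 region over both, a single H3K4me3 peak joined 295 (3.62%, interval 3.22 to 4.04), and H3K4me3 entered the gap in 31.9%. For H3K4me3 pairs the matching joined share was 9.95%. With 1 H3K36me3 region over both peaks, an H3K4me3 peak joined 559 of 3469 H3K56ac pairs (16.1%), and an H3K56ac peak joined 230 of 3412 H3K4me3 pairs (6.74%). The sets were not matched for gap or peak length, and joining went with the gap in H3K4me3 pairs. The part of H3K36me3 in this difference was not tested.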
